A study of Homo sapiens with 39 samples.

Results

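TRIM37 is 1 of 23710 genes listed in each of 5 tables that compare human cells with lowered or raised TRIM37 with their controls by RNA sequencing. It was taken by its symbol in the gene column, which gave 1 entry in every table. TRIM37 encodes a ubiquitin ligase of the tripartite motif family, with a RING finger, a B-box, a coiled coil and a MATH domain, a substrate-binding fold shared with the TRAF signalling adaptors. The protein limits the assembly of pericentriolar material away from centrioles, with the scaffold protein CEP192 and the kinase PLK4 among its partners, and it binds the peroxisomal import receptor PEX5. The gene lies on the long arm of chromosome 17, which is often gained in neuroblastoma, and its inherited loss causes the growth disorder mulibrey nanism.

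The 39 libraries fall into 9 groups. RPE1 is an hTERT-immortalised, untransformed retinal pigment epithelial line, with 9 wild type libraries and 9 libraries carrying a TRIM37 knockout. CHP-134 is a neuroblastoma line, with 3 wild type libraries and 3 libraries of each of 2 mutant clones, whose genotype the labels call a partial TRIM37 knockout. The remaining 12 libraries come from RPE1 clones 4 and 5 with an inducible TetOn-TRIM37 gene, in which doxycycline switches on the added copy. Each TetOn clone has 3 untreated libraries and 3 libraries from cells kept in 1 µM doxycycline for 24 h. RPE1 was grown in DMEM/F12 and CHP-134 in RPMI, both with serum, and no other group received doxycycline. The labels name no clone for the RPE1 knockout, and the sources used here give neither the guide, nor the targeted exon, nor the transgene construct. Both CHP-134 clones are compared with the same 3 wild type libraries, and no library of cells without the TetOn gene was treated with doxycycline, so an effect of the drug and one of TRIM37 cannot be told apart in the TetOn comparisons.

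The tables hold the authors' mean count, log2 fold change, standard error (SE) and q value per gene, and no value per library, so no spread between libraries and no depth of a library can be given. RPE1 wild type titles carry a set and a number within it, 3 by 3, and those of the knockout a single number. Nothing in the labels says that replicates were separate cultures, and the q values then measure only the spread between these libraries, which may be technical. Genes above the authors' count limit and not marked as outliers are termed usable, and calls are those with an authors' q under 0.05. The lines were checked against marker genes by their wild type levels, which were worked out from the mean counts as described further on. In RPE1 wild type, 8 of 11 markers of the line stood over 10 against 2 of 12 neuroblastoma markers, and RPE65, BEST1 and RLBP1, which define the differentiated pigment epithelium, did not. In CHP-134 wild type, 10 of 12 neuroblastoma markers stood over 10, all but DBH and TH, and so did 7 of 11 RPE1-line markers, so the count of the latter hardly separates the lines. Summed levels do, within each table's own scale: RPE1-line markers came to 357180 in RPE1 and 10978 in CHP-134, and neuroblastoma markers to 497 and 102152. Markers of leukocytes, endothelium, Schwann cells, fibroblasts and keratinocytes stood over 10 in 3 of 12 cases in RPE1 wild type and in 2 of 12 in CHP-134 wild type (PTPRC and COL1A1).

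The TRIM37 gene spans chr17:58967201-59106880 on the minus strand of GRCh38.p14 in RefSeq, 139680 bases. The build the authors counted on is not given in the sources used here. The sequence just upstream of its start, chr17:59106881-59107130 in RefSeq's GRCh38.p14 annotation, is shown because it precedes the native gene. It is the reference sequence, not that of either line, and its bearing on TRIM37 levels was not tested. It is written 5′ to 3′ on the gene's strand, and capitals mark a GC box and the core of the NRF1 motif.

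TRIM37: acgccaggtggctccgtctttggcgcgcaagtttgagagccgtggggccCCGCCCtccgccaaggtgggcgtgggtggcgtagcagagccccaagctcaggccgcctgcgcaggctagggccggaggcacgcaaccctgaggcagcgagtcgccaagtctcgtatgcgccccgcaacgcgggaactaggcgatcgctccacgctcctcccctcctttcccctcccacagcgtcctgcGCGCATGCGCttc

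These 250 bases are 70% G or C, against a median of 58% over 35116 promoters of the same kind, and hold 27 CG pairs against a median of 11. The GC box GGGCGG had 1 match, on the opposite strand, starting 201 bases before the gene's start, and 42.6% of promoters held it. GCATGCGC, the core of the NRF1 motif, had 2 overlapping matches, 1 on each strand, 13 and 11 bases before the start, and 2.63% of promoters held it. CCAAT (in 32.0% of promoters), TATAAA (10.7%) and the E-box CACGTG (6.34%) had 0 matches in this window. Both strands were searched, and the motifs were chosen after the sequence had been seen. A match is a string of letters and no evidence of binding.

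Loss of TRIM37 is given first. In the RPE1 tables it cannot check the labels, since their direction was taken from TRIM37. In the RPE1 knockout, the authors' deposited table gives TRIM37 a mean count of 1590 and a log2 fold change of -1.95 (SE 0.0461, q printed as 0). The knockout group thus held 25.9% of the wild type level (95% interval 24.3 to 27.6%). Of 13002 usable genes, 26.9% were called down, so the call alone does not set TRIM37 apart in this comparison. The fall of TRIM37 was large but not the largest, and 130 genes fell by more. Its fall lay at the first percentile of all log2 fold changes, and 45 genes had a larger ratio of change to SE.

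In CHP-134, TRIM37 fell in both clones. For clone 1 the authors' deposited table gives a mean count of 5390 and a log2 fold change of -1.66 (SE 0.0337, q printed as 0), which leaves 31.6% of the wild type level (95% interval 30.2 to 33.1%). For clone 2 the mean count was 5650 and the log2 fold change -1.75 (SE 0.0416, q printed as 0) in the authors' deposited table, which leaves 29.7% (95% interval 28.1 to 31.5%). Between 25.9 and 31.6% of the transcript thus remained in all 3 altered lines, whether labelled a knockout or a partial knockout.

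In clone 1, where 9.07% of 12791 usable genes were called down, 26 genes fell by more than TRIM37 and 0 had a larger ratio of change to SE. In clone 2, where 24.2% of 12771 were called down, 95 genes fell by more and 2 had a larger ratio. TRIM37 thus led its table by that ratio in clone 1 and was 1 of many strongly lowered genes in the RPE1 knockout. In such bulk libraries, fewer cells with an intact transcript and less transcript per cell cannot be told apart, and a transcript with a small deletion or insertion is still counted.

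Doxycycline raised TRIM37 more than any other gene in either TetOn clone. In clone 4 the authors' deposited table gives a mean count of 19800 and a log2 fold change of 3.19 (SE 0.0441, q printed as 0), a 9.13-fold rise (95% interval 8.60 to 9.69). In clone 5 the mean count was 22600 and the log2 fold change 2.64 (SE 0.0419, q printed as 0) in the authors' deposited table, a 6.23-fold rise (95% interval 5.89 to 6.60). The next largest rises in the authors' deposited tables, named after their values were seen, were 1.26 for C21orf91 in clone 4 and 1.41 for FNDC3A in clone 5.

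Few other genes moved: in clone 4, doxycycline gave upward calls in 0.716% of 12153 usable genes and downward calls in 1.23%, and in clone 5 in 0.795% and 2.17% of 12195. Beside that, 26.6% of usable genes were called up in the RPE1 knockout, 9.60% in CHP-134 clone 1 and 22.0% in clone 2. From the first to the 99th percentile, log2 fold changes ran from -0.29 to 0.31 in clone 4 and from -0.32 to 0.27 in clone 5. With so few calls in the TetOn comparisons, 0 calls in a short list of genes says little about its members. The tables have a single entry for TRIM37, which does not separate the native transcript from that of the added gene.

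**Figure D1:**
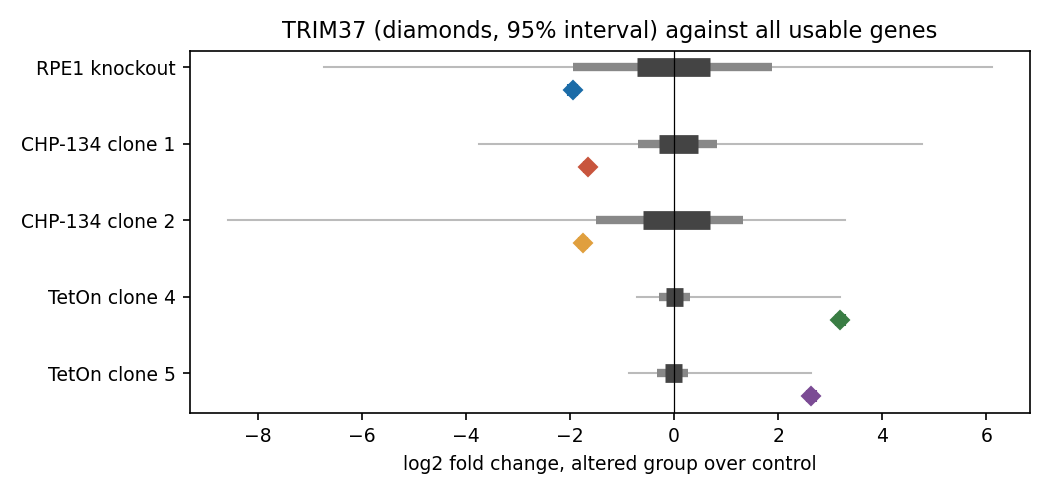
TRIM37 against all usable genes in the 5 comparisons; the horizontal axis is the authors' log2 fold change of the altered group over its control, diamonds are TRIM37 with its 95% interval, thin lines span the lowest to the highest gene, grey bars the first to the 99th percentile and dark bars the fifth to the 95th. TRIM37 sits at the edge of the grey bar in the RPE1 knockout, at -1.95, and far beyond it in the TetOn clones, at 3.19 and 2.64.

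Differences in the size of the change between comparisons were tested by dividing each difference by its SE, taken from both tables' SEs as for independent estimates, and adjusting the normal p by Benjamini-Hochberg over every gene usable in both. The rise was smaller in TetOn clone 5 than in clone 4 by 0.55 on the log2 scale (SE 0.0608, 95% interval of the difference from clone 4 to clone 5, -0.67 to -0.43, adjusted p = 6.07e-16), a ratio of 0.683. Only 0.221% of 11778 genes differed between these clones by that test. TRIM37 was 1 of only 26 genes for which the clones were shown to differ.

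The fall did not differ detectably between the CHP-134 clones: clone 2 minus clone 1 was -0.09 (SE 0.0535, 95% interval -0.19 to 0.015, adjusted p = 0.252), where 20.5% of 12579 genes did differ. Because the clones share their wild type libraries, that SE is too large. With the variance reduced to allow for the shared libraries, the same difference had an adjusted p of 0.0473. With the null widened to the central spread of all genes, the adjusted p was 0.968, so the test does not settle whether clone 2 lost slightly more.

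Relative to the RPE1 knockout, the fall was smaller by 0.29 in CHP-134 clone 1 (SE 0.0571, 95% interval 0.18 to 0.40, adjusted p = 3.51e-06) and by 0.20 in clone 2 (SE 0.0621, 95% interval 0.078 to 0.32, adjusted p = 0.00393). These 2 tests carry little weight for TRIM37 in particular, since 34.1% of 11194 genes and 46.5% of 11160 differed in them. With the null widened to the central spread of all genes, the adjusted p values were 0.315 and 0.899.

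TRIM37 levels of the single groups were solved from each table's mean count and log2 fold change, with the equal group sizes the labels give. In the authors' normalised counts this gave 2526 for RPE1 wild type and 654 for the knockout. The CHP-134 wild type came to 8189 and mutant clone 1 to 2591 in their table, and the same wild type came to 8710 and mutant clone 2 to 2590 in the other. TetOn clone 4 went from 3911 untreated to 35689 with doxycycline, and TetOn clone 5 from 6249 to 38951.

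The wild type shared by the CHP-134 tables tests these levels and the direction of the fold changes, which the file headers do not state, without using TRIM37. Over 10874 genes, the wild type levels solved from both tables had a median log2 ratio of -0.089 and a median absolute deviation around it of 0.0024, against 0.10 to 0.18 when either table was read the other way round. TRIM37's own ratio was 0.00013 from that median. The 3 RPE1 tables share no group, every reading of them gave a deviation between 0.13 and 0.22, and their direction was taken from TRIM37 itself.

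To set the groups side by side, tables were scaled to RPE1 wild type by the median ratio of control levels over 9221 genes whose mean count reached 100. These are descriptions, since the tables were normalised separately and no spread is known. The RPE1 knockout stood at 0.259 of RPE1 wild type. CHP-134 wild type stood at 3.58 times RPE1 wild type (3.58 to 4.49 over 4 scalings), higher than 96.9% of genes on that ratio.

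By these descriptions, residual transcript in the CHP-134 mutants stood near the level of unaltered RPE1 or above it, with no spread known. Clone 1 stood at 1.13 times RPE1 wild type (1.13 to 1.42) and clone 2 at 1.06 times (1.06 to 1.34). Both lie above the 0.259 of the RPE1 knockout, and CHP-134 also started from the higher level. TRIM37 protein was not analysed here.

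The TetOn clones held more TRIM37 than RPE1 wild type before any doxycycline, 2.13 times in clone 4 (1.79 to 2.14 over the scalings) and 3.80 times in clone 5 (3.73 to 3.82). Among the 9221 genes, 46 had a higher ratio to RPE1 wild type in untreated clone 4 and 2 in untreated clone 5. With doxycycline the levels were 19.5 times RPE1 wild type in clone 4 (16.3 to 19.5) and 23.7 times in clone 5 (23.3 to 23.8).

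Clone 5 was above clone 4 by 1.78 times untreated (1.78 to 2.13) and by 1.22 times with doxycycline (1.22 to 1.45). The smaller fold rise of clone 5 thus stood beside a higher untreated level and not beside a lower induced level. Between the untreated clones, 111 of the 9221 genes had a larger ratio than TRIM37, and between the induced clones 953 did.

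From lowest to highest, the order was RPE1 knockout, RPE1 wild type, CHP-134 clone 2, CHP-134 clone 1, untreated TetOn clone 4, CHP-134 wild type, untreated TetOn clone 5, induced TetOn clone 4 and induced TetOn clone 5. CHP-134 wild type and untreated TetOn clone 5 changed places under the scaling on reference genes and under that on summed counts, and the others kept their order in all 4. Apart from the first pair, which 1 table compares, none of these neighbours can be said to differ beyond its spread. The span from the RPE1 knockout to the induced TetOn clones was 75.2-fold for clone 4 (63.1 to 75.3) and 91.5-fold for clone 5 (89.9 to 92.1), and induced clone 4 stood 5.43 times above CHP-134 wild type (3.63 to 5.43).

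**Figure D2:**
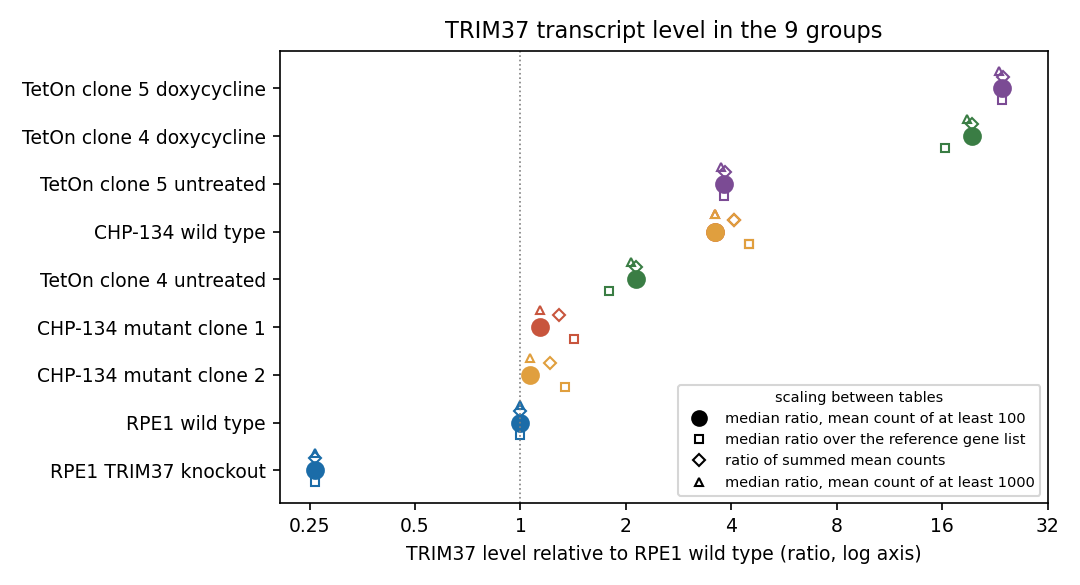
TRIM37 transcript level of the 9 groups relative to RPE1 wild type on a log axis; filled circles use the median ratio over genes whose mean count reached 100, and small open symbols the 3 other scalings. The groups run from 0.259 in the RPE1 knockout to 23.7 in induced TetOn clone 5, with the CHP-134 mutants close to RPE1 wild type; no error bars are drawn because the tables hold no value per library.

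The genes next to TRIM37 on chromosome 17 were examined to see whether the change was shared by the region. Of the 10 nearest genes with an entry, 5 on each side, 6 were usable in the RPE1 knockout, 7 in each CHP-134 clone and 6 in each TetOn clone. In the RPE1 knockout 4 were called down and 0 up (median -0.23), with 26.9% of all usable genes called down. In CHP-134 clone 1, 1 was called down and 0 up (median -0.078), beside 9.07% of all usable genes called down, and in clone 2, 6 were called down and 0 up (median -0.19), beside 24.2%. In the TetOn clones DESeq2 called 0, with medians of -0.0013 in clone 4 and 0.038 in clone 5, and 1 and 0 had an unadjusted p under 0.05. Of all usable genes, 10.1% in clone 4 and 10.7% in clone 5 had such a p. No neighbour moved by as much as TRIM37 in any table, and the median over all of chromosome 17 lay between -0.010 and 0.059.

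PPM1E, a protein phosphatase gene, overlaps the end of TRIM37 by 17979 bases on the opposite strand in RefSeq. Whether the authors' counting used strand is not stated, so reads in the overlap cannot be assigned with certainty. The log2 fold change of PPM1E was -0.87 (SE 0.193, q = 2e-05) in the RPE1 knockout, at a mean count of only 48.3, in the authors' deposited table. In the authors' deposited tables of CHP-134, where its mean counts were 4340 and 4330, it was 0.027 (q = 0.801) in clone 1 and -0.16 (q = 0.049) in clone 2. Under doxycycline it was -0.0031 in TetOn clone 4 and -0.23 (q = 0.581) in clone 5 in the authors' deposited tables. PPM1E therefore did not follow TRIM37 upwards.

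SKA2, a gene of the kinetochore microtubule complex on the other side of TRIM37, fell by 0.13 (q = 0.00173) in the RPE1 knockout and by 0.19 (q = 0.000104) in CHP-134 clone 2 in the authors' deposited tables. In the remaining 3 of the authors' deposited tables SKA2 stood at -0.078 (q = 0.184) in clone 1, 0.086 (q = 0.22) in TetOn clone 4 and 0.065 (q = 0.68) in TetOn clone 5. RAD51C, a gene of homologous recombination repair, fell by 0.38 (q = 7.03e-09) in the RPE1 knockout and fell by 0.355 (q = 2.89e-07) in clone 2 in the authors' deposited tables. These falls are small beside that of TRIM37.

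The phosphatase gene MTMR4 fell by 0.33 (q = 4.73e-23) in the RPE1 knockout and by 0.13 (q = 0.0136) in clone 2 in the authors' deposited tables. TEX14, a germ cell intercellular bridge gene, fell by 0.53 (q = 1.91e-05) and PRR11 by 0.23 (q = 4.09e-07) in clone 2 in the authors' deposited table. SMG8, a gene of nonsense-mediated decay, fell by 0.17 (q = 0.00105) in clone 1 in the authors' deposited table. C17orf47, MIR454 and MIR301A lay below the count limit in all 5 tables.

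**Figure D3:**
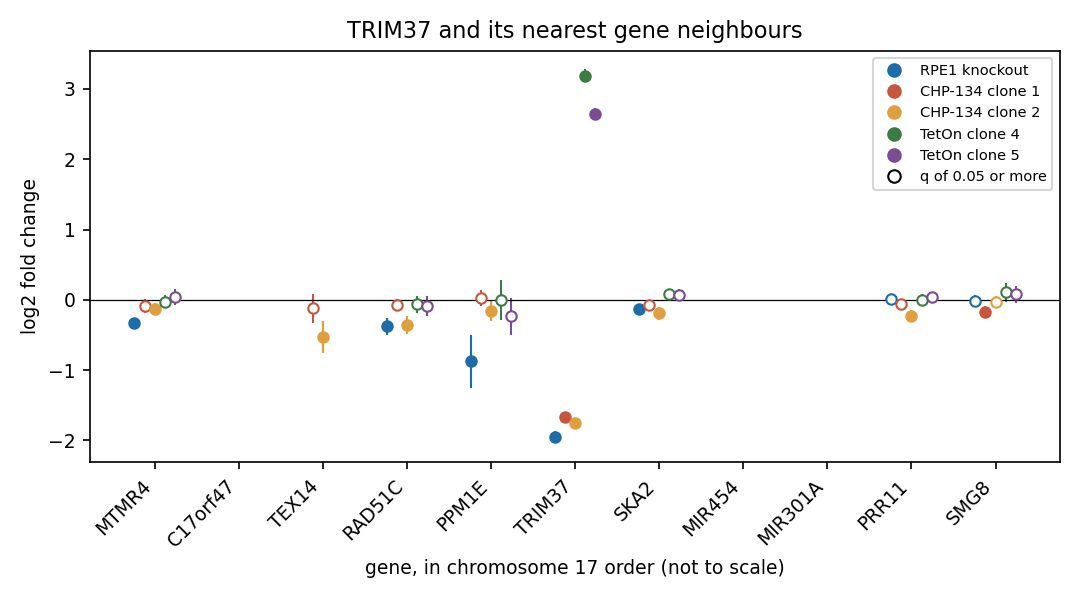
Log2 fold change of TRIM37 and its 10 nearest listed genes in chromosome order, with 95% intervals, in the 5 comparisons; open circles had a q of 0.05 or more, and a gene without points was not usable. TRIM37 spans -1.95 to 3.19 while its neighbours lie between -0.87 and 0.11.

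Transcripts of 17 proteins reported as substrates or partners of TRIM37 were followed across the dose range, all of them usable in every table. The RPE1 knockout had 4 up and 2 down (median 0.022, against -0.0022 over all usable genes). CHP-134 clone 1 had 0 up and 7 down (median -0.11, against -0.0068), and clone 2 had 1 up and 8 down (median -0.13, against -0.012). In the TetOn clones DESeq2 called 0 of 17. At an unadjusted p under 0.05 there were 0 in clone 4, beside 10.1% of all usable genes, and 5 in clone 5, beside 10.7%. Their medians were -0.00013 in clone 4 and 0.0725 in clone 5, against 0.0016 and 0.0020 over all usable genes, and their values lay between -0.089 and 0.195. Of all usable genes, 26.6% were up and 26.9% down in the RPE1 knockout, 9.60% and 9.07% in CHP-134 clone 1 and 22.0% and 24.2% in clone 2, and the CHP-134 clones share their wild type. Protein levels, on which a ubiquitin ligase acts, were not analysed here.

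At the centrosome, PLK4, the kinase that starts centriole duplication, rose by 0.077 (SE 0.0326, q = 0.0344) in the RPE1 knockout in the authors' deposited table. PLK4 fell by 0.17 (SE 0.0553, q = 0.0155) in CHP-134 clone 1 and by 0.25 (SE 0.0614, q = 0.000225) in clone 2 in the authors' deposited tables. CEP192, the scaffold of pericentriolar material, fell by 0.14 (q = 0.0347) in clone 1 and was at 0.026 (q = 0.574) in the RPE1 knockout and -0.011 (q = 0.92) in clone 2 in the authors' deposited tables. The direction of PLK4 therefore differed between the lines, and each of its changes was small beside the change in TRIM37.

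CDK5RAP2, a pericentriolar scaffold, fell by 0.087 (q = 0.0316) in the RPE1 knockout and by 0.16 (q = 0.00106) in clone 2 in the authors' deposited tables. CNTROB, the centriole protein centrobin, CEP152, the centriolar receptor of PLK4, and PCNT, pericentrin, were called in 0 of 5 tables. Their smallest q values in the authors' deposited tables were 0.0572 for CNTROB, at -0.074 in the RPE1 knockout, 0.134 for CEP152, at 0.195 in TetOn clone 5, and 0.111 for PCNT, at 0.15 in CHP-134 clone 2. The spindle protein gene SPAG5 fell by 0.23 (q = 2.61e-06) in clone 1 and rose by 0.38 (q = 4.83e-11) in clone 2 in the authors' deposited tables, so its calls had opposite signs in the clones.

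PEX5, the receptor that brings enzymes into the peroxisome, had the largest rise of the 17 in the RPE1 knockout, 0.37 (SE 0.0369, q = 2.14e-22) in the authors' deposited table. Elsewhere the authors' deposited tables give PEX5 0.042 (q = 0.678) in clone 1, 0.093 (q = 0.192) in clone 2, -0.071 (q = 0.792) in TetOn clone 4 and 0.12 (q = 0.545) in TetOn clone 5. Its rise was thus called in the RPE1 knockout and in none of the other 4 tables; whether it differed between them was not tested.

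Among the polycomb proteins, which silence genes through histone modification, the ligase gene RNF2 rose by 0.33 (SE 0.0474, q = 2.04e-11) and the methyltransferase gene EZH2 by 0.17 (SE 0.0304, q = 2.01e-07) in the RPE1 knockout in the authors' deposited table. In CHP-134 both fell in the authors' deposited tables, RNF2 by 0.16 (q = 0.0184) in clone 1 and 0.21 (q = 0.0189) in clone 2, and EZH2 by 0.12 (q = 0.0359) and 0.36 (q = 2.13e-12). Their partners SUZ12 and EED, core subunits with EZH2, fell by 0.21 (q = 0.000242) and 0.28 (q = 0.00078) in clone 1 and by 0.29 (q = 0.000713) and 0.14 (q = 0.0318) in clone 2 in the authors' deposited tables. For the RPE1 knockout the authors' deposited table gives SUZ12 0.011 (q = 0.776) and EED 0.082 (q = 0.287). For RNF2 and EZH2 the sign was thus opposite in the lines at a like percentage loss of TRIM37 transcript. The scaled level left was not alike, 0.259 of RPE1 wild type in the knockout and 1.13 and 1.06 times in clones 1 and 2.

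The remaining partners were called in 1 table each or in none. XIAP, an inhibitor of apoptosis, fell by 0.24 (q = 0.00191) and the mitotic kinase gene CDK1 by 0.22 (q = 0.00152) in clone 2 in the authors' deposited table. TRAF6, a signalling adaptor, fell by 0.13 (q = 0.0371) in the RPE1 knockout in the authors' deposited table. TRAF2 and the DNA damage sensor gene PARP1 were called in 0 of 5 tables, with q values no smaller than 0.508 and 0.177.

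**Figure D4:**
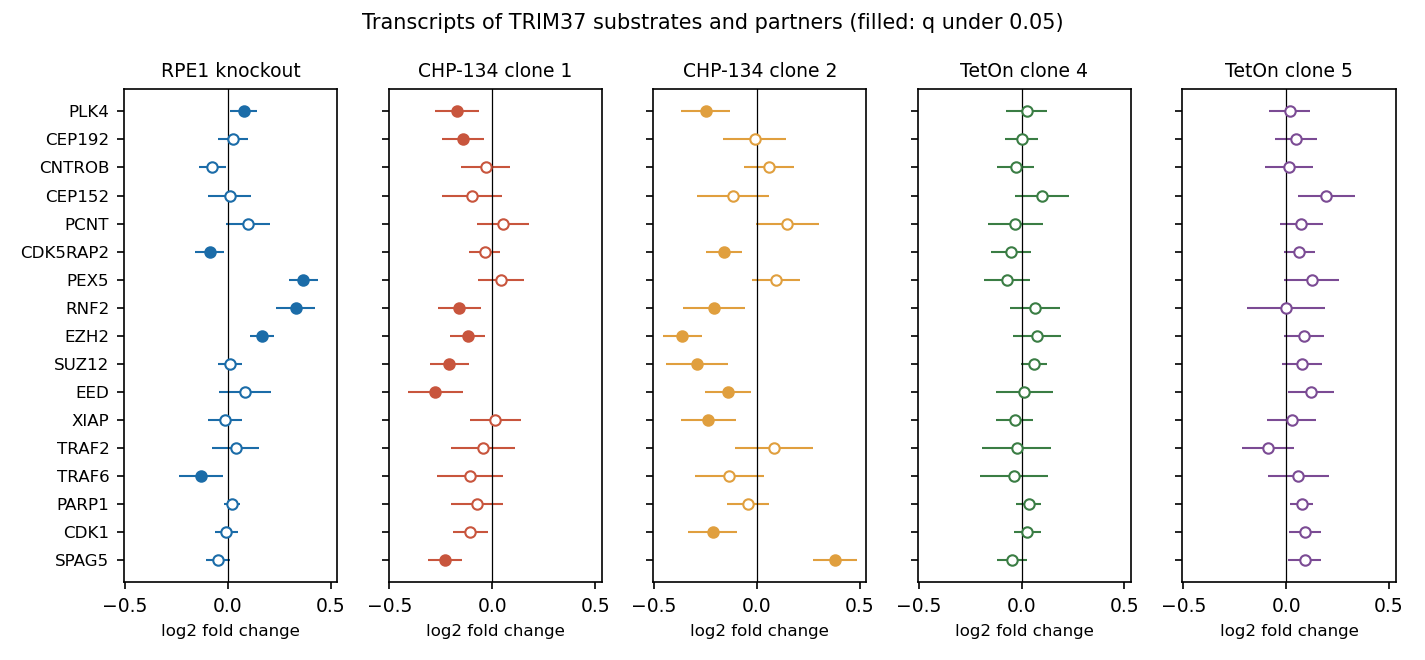
Log2 fold change with its 95% interval of the transcripts of 17 TRIM37 substrates and partners in the 5 comparisons, filled where the authors' q was under 0.05. Filled points run both ways in the RPE1 knockout (4 up, 2 down) and mostly down in the CHP-134 clones (7 and 8 down), and there are 0 in either TetOn clone.

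Other genes with a MATH domain were examined as the relatives of TRIM37 by fold, 11 in all, of which TRAF2 and TRAF6 are also in the list above. The protease genes MEP1A and MEP1B lay under the count limit, and 9 were usable in each table. The RPE1 knockout had 2 up and 4 down, CHP-134 clone 1 had 0 up and 2 down, and clone 2 had 2 up and 5 down (medians -0.0038, -0.060 and -0.13). These stand against 26.6% and 26.9% of all usable genes in the RPE1 knockout, 9.60% and 9.07% in clone 1 and 22.0% and 24.2% in clone 2. DESeq2 called 0 in either TetOn clone, with 0 at an unadjusted p under 0.05 in each (medians -0.018 and 0.017). In clones 4 and 5, 10.1% and 10.7% of all usable genes had such a p.

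TRAF1, an adaptor induced by NF-kB, showed the largest changes of the list, with log2 fold changes of -1.32 (SE 0.10, q = 2.31e-38) in the RPE1 knockout and -2.69 (SE 0.234, q = 1.2e-28) in clone 2 in the authors' deposited tables. Otherwise the authors' deposited tables give TRAF1 -0.175 (q = 0.527) in clone 1, -0.21 (q = 0.571) in TetOn clone 4 and -0.24 (q = 0.491) in TetOn clone 5. TRAF4 fell by 0.26 (q = 8.22e-07) in the RPE1 knockout and rose by 0.97 (q = 2.46e-20) in clone 2 in the authors' deposited tables. TRAF1 was thus below 0 in all 5 tables and called in 2 of them.

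TRAF5 fell by 0.42 (q = 4.82e-08) in the RPE1 knockout and by 0.35 (q = 1.37e-07) in clone 2, and TRAF3 rose by 0.090 (q = 0.0335) and 0.30 (q = 0.000282) there, in the authors' deposited tables. USP7, a deubiquitinase that acts on the p53 regulator MDM2, rose by 0.11 (q = 2.68e-06) in the RPE1 knockout and fell by 0.155 (q = 0.00243) in clone 1 and 0.21 (q = 7.31e-06) in clone 2 in the authors' deposited tables. SPOP, a substrate adaptor of cullin ligases, fell by 0.14 (q = 0.00117) in clone 1 and 0.13 (q = 0.0011) in clone 2, and its paralogue SPOPL by 0.43 (q = 6.62e-06) in clone 2, in the authors' deposited tables.

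Among the other TRIM family genes, 69 of 79 listed symbols had an entry, and 41, 36, 36, 40 and 41 were usable in the RPE1 knockout, CHP-134 clones 1 and 2 and TetOn clones 4 and 5. In the RPE1 knockout 13 rose and 9 fell (median 0.0052), in clone 1, 5 rose and 2 fell (median 0.021), and in clone 2, 12 rose and 6 fell (median 0.097). The shares over all usable genes were 26.6% up and 26.9% down, 9.60% and 9.07%, and 22.0% and 24.2%, so the RPE1 knockout counts lie close to the background. TetOn clone 4 had 0 calls by DESeq2, with 5 of 40 at an unadjusted p under 0.05, beside 10.1% of all usable genes. TetOn clone 5 had 1 call, beside 2.17% of all usable genes called down. It was TRIM16, an autophagy-linked member, which fell by 0.23 (SE 0.0593, q = 0.0045) in the authors' deposited table.

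TRIM16 also fell in the RPE1 knockout, by 0.62 (SE 0.0493, q = 1.63e-35), and the antiviral gene TRIM22 rose by 0.635 (SE 0.0381, q printed as 0) in the authors' deposited table. The smallest q in clone 1 was that of TRIM25, an activator of RIG-I signalling, which fell by 0.56 (SE 0.0676, q = 2.46e-14), and in clone 2 that of TRIM71, a regulator of RNA, which rose by 0.975 (SE 0.0844, q = 5.8e-29), in the authors' deposited tables. No other TRIM gene rose in either TetOn clone by the test.

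Of 13 genes for ubiquitin E1 and E2 enzymes, which pass ubiquitin to ligases such as TRIM37, 4 rose and 2 fell in the RPE1 knockout, 0 rose and 1 fell in clone 1, and 1 rose and 6 fell in clone 2. Rises and falls made up 26.6% and 26.9%, 9.60% and 9.07%, and 22.0% and 24.2% of all usable genes in these tables. DESeq2 called 0 in TetOn clones 4 and 5, with 2 and 0 at an unadjusted p under 0.05, beside 10.1% and 10.7% of all usable genes. UBE2N, which builds lysine-63 chains, rose by 0.59 (SE 0.0394, q printed as 0) in the RPE1 knockout and fell by 0.20 (SE 0.0462, q = 6.5e-05) in clone 2 in the authors' deposited tables.

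Genes of centriole duplication, 18 of 19 with an entry and all usable, had 3 up and 4 down in the RPE1 knockout (median 0.036), 0 up and 4 down in clone 1 (median -0.10) and 0 up and 11 down in clone 2 (median -0.19). Over all usable genes 26.6% and 26.9%, 9.60% and 9.07%, and 22.0% and 24.2% were up and down. The RPE1 knockout counts are thus no higher than the background. In CHP-134 the downward counts exceed it in both clones, which share their wild type, and the upward counts are 0. TetOn clone 4 had 0 calls by DESeq2 and 0 at an unadjusted p under 0.05, beside 10.1% of all usable genes. TetOn clone 5 had 1 gene up, beside 0.795% of all usable genes. That gene was CEP97, a cap of the centriole's end, which rose by 0.33 (SE 0.0621, q = 1.72e-05) in the authors' deposited table. In the RPE1 knockout CEP135, of the centriole's cartwheel, fell by 0.32 (SE 0.0553, q = 2.28e-08) and the centrin gene CETN2 rose by 0.21 (SE 0.0409, q = 1.04e-06) in the authors' deposited table. RTTN, needed for full-length centrioles, fell by 0.33 (SE 0.0558, q = 1.67e-07) in clone 1, and CEP120 by 0.43 (SE 0.0628, q = 1.22e-10) in clone 2, in the authors' deposited tables.

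Genes of the mitotic surveillance pathway, which stops cells without centrosomes through p53, and targets of p53 were more often up than down where TRIM37 was lost. Of 15 usable in the RPE1 knockout, 11 were up and 3 down (median 0.36), of 13 in clone 1, 6 were up and 1 down (median 0.25), and of 13 in clone 2, 10 were up and 2 down (median 0.28). The upward share of all usable genes was 26.6%, 9.60% and 22.0% in these tables, and the downward share 26.9%, 9.07% and 24.2%. DESeq2 called 0 of 12 in TetOn clone 4, with 1 at an unadjusted p under 0.05, and clone 5 had 0 up and 1 down of 14 (medians -0.059 and -0.044). Of all usable genes, 10.1% had such a p in clone 4, and 2.17% were called down in clone 5.

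CDKN1A, the p53-induced cell cycle inhibitor, rose by 0.41 (SE 0.0275, q printed as 0) in the RPE1 knockout, by 1.08 (SE 0.0764, q = 1.35e-42) in clone 1 and by 1.74 (SE 0.0862, q printed as 0) in clone 2 in the authors' deposited tables. It fell by 0.14 (SE 0.0319, q = 0.00108) in TetOn clone 5 and was marked as an outlier in clone 4, at -0.16, in the authors' deposited tables. Among those that fell in the RPE1 knockout, and named after its value was seen, was the surveillance gene USP28, which fell by 0.25 (SE 0.0526, q = 5.5e-06) in the authors' deposited table. MDM2, which targets p53 for degradation, rose by 0.95 (SE 0.037, q printed as 0) in the RPE1 knockout in the authors' deposited table. In CHP-134 it was at only 0.068 (q = 0.468) in clone 1 and 0.14 (q = 0.0446) in clone 2 in the authors' deposited tables. The pro-apoptotic gene BBC3 rose by 1.26 (SE 0.235, q = 3.71e-06) in clone 1 and 2.12 (SE 0.221, q = 4.22e-20) in clone 2, in the authors' deposited tables. CDKN1A thus moved against TRIM37 in 4 of the 4 tables where it was usable.

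Polycomb genes, 26 in all and including RNF2, EZH2, SUZ12 and EED, had 25 usable members in each loss comparison, of which 8 rose and 9 fell in the RPE1 knockout, 1 rose and 5 fell in clone 1, and 8 rose and 6 fell in clone 2. The background was 26.6% up and 26.9% down, 9.60% and 9.07%, and 22.0% and 24.2%. DESeq2 called 0 of 26 in each TetOn clone, with 3 and 4 at an unadjusted p under 0.05, beside 10.1% and 10.7% of all usable genes. KDM2B, a targeting subunit, rose by 0.61 (SE 0.0335, q printed as 0) in the RPE1 knockout, and PCGF3 rose by 1.03 (SE 0.0504, q printed as 0) in clone 2, in the authors' deposited tables. Peroxins, 15 genes of peroxisome assembly and import including PEX5, with 15, 15 and 14 usable, showed 2 rises and 2 falls in the RPE1 knockout, 1 rise and 0 falls in clone 1, and 2 rises and 3 falls in clone 2, each of these shares lying under the same background. DESeq2 called 0 of 15 in each TetOn clone, with 2 and 0 at an unadjusted p under 0.05, beside the same 10.1% and 10.7%. PEX7, the second import receptor, fell by 0.37 (SE 0.0928, q = 0.000232) in the RPE1 knockout in the authors' deposited table, so the import receptors PEX5 and PEX7 moved in opposite directions.

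Genes that respond to doxycycline or to mitochondrial stress through ATF4, the factor of the integrated stress response, were followed beside the TetOn results. In TetOn clone 4, 3 of 11 usable genes were up and 0 down (median 0.13), beside 0.716% of all usable genes called up, and 8 had an unadjusted p under 0.05. Of all usable genes, 10.1% had such a p in clone 4 and 10.7% in clone 5. In clone 5 DESeq2 called 0 of 10 (median 0.010), with 1 at an unadjusted p under 0.05, but ASNS and PSAT1 were marked as outliers there and so were not usable. The authors' deposited table gives the 3 of clone 4 as ASNS, asparagine synthetase, at 0.23 (SE 0.0299, q = 1.89e-11), PSAT1, of serine synthesis, at 0.22 (SE 0.0366, q = 6.96e-07) and ATF4 itself at 0.205 (SE 0.0395, q = 3.91e-05). Their part in the TetOn results was not tested. Of the same list, 6 rose and 5 fell of 12 in the RPE1 knockout, 2 rose and 4 fell of 11 in clone 1, and 3 rose and 4 fell of 11 in clone 2, with upward shares over all usable genes of 26.6%, 9.60% and 22.0% and downward shares of 26.9%, 9.07% and 24.2%.

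As a yardstick, 16 reference genes had 5 up and 5 down in the RPE1 knockout, 0 up and 3 down in clone 1, 3 up and 7 down in clone 2, 0 up and 2 down in TetOn clone 4 and 0 up and 1 down in TetOn clone 5. TFRC, the transferrin receptor, was the 1 called in both TetOn clones, and the authors' deposited tables give it -0.13 (q = 0.0446) in clone 4 and -0.091 (q = 0.047) in clone 5. Over all usable genes, 26.6% were up and 26.9% down in the RPE1 knockout and 9.60% and 9.07% in clone 1. The shares up and down were 22.0% and 24.2% in clone 2, 0.716% and 1.23% in TetOn clone 4 and 0.795% and 2.17% in TetOn clone 5. The RPE1 knockout counts of reference genes thus lie close to the background. Downward counts lie above it in the other tables, by few genes in each TetOn clone.

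The RPE1 tables, which share no libraries, allow genes that went with or against TRIM37 to be counted in 1 line. Of 11629 genes usable in the knockout and both TetOn tables, 6272 were called in the knockout (53.9%), 225 in TetOn clone 4, 325 in TetOn clone 5 and 106 in both TetOn clones. Called in all 3 were 91 genes, which are 1.45% of the knockout list, 40.4% of the clone 4 list and 28.0% of the clone 5 list. They are 85.8% of the 106 genes called in both TetOn clones, beside the 53.9% of usable genes called in the knockout. Of these 91, 50 had 1 sign in the knockout and the other in both TetOn clones, 54.9% of the 91 and 0.430% of the usable genes. The same sign throughout was held by 39, 11 up and 28 down, and the split between opposite and same sign was not tested. The remaining 2 were up in 1 TetOn clone and down in the other.

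With TRIM37 itself, 9 of the 50 fell in the knockout and rose with doxycycline, and 41 rose in the knockout and fell with doxycycline. The place of TRIM37 among the 9 was fixed in advance, since the direction of the RPE1 tables was taken from it. The 8 others that went with TRIM37, named after their values were seen, were PVR, NANS, CCBE1, ERRFI1, OXR1, CENPT, MAP4 and LBR. PVR, a nectin-like adhesion receptor, had the largest fall of them, with -1.25 in the knockout and 0.23 and 0.15 in TetOn clones 4 and 5 in the authors' deposited tables. CENPT, a kinetochore gene, had the largest rise, 0.51 and 0.52 in the TetOn clones against -0.185 in the knockout in the authors' deposited tables. A rise of TRIM37 by 3.19 and 2.64 thus stood beside rises of at most 0.52 in these genes.

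**Figure D5:**
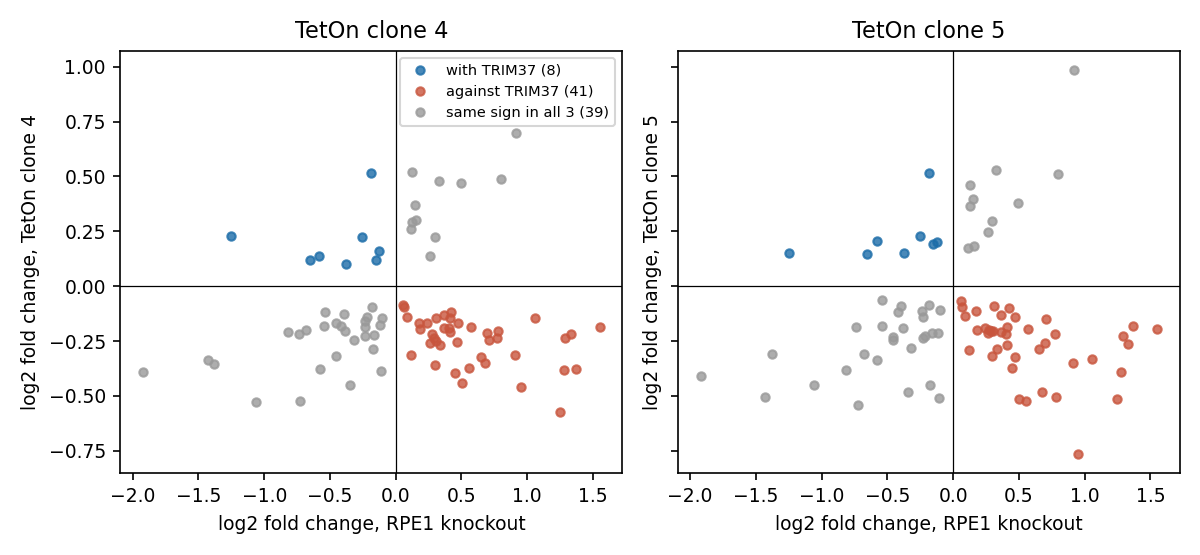
Log2 fold change in the RPE1 knockout (horizontal) against that in TetOn clone 4 (left) and clone 5 (right) for genes called in all 3 tables, TRIM37 itself and the 2 genes of mixed sign left out. Blue points (8) went with TRIM37, red points (41) against it, and grey points (39) had the same sign in all 3.

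The pattern over all 5 comparisons was set beside that of TRIM37 by the cosine of the 5 log2 fold changes, among 37 genes whose mean count reached 50 and that were called in the RPE1 knockout, both TetOn clones and at least 1 CHP-134 clone. The 5 values are not independent, since the CHP-134 clones share their wild type. Most alike was LBR, the lamin B receptor of the inner nuclear membrane, at 0.937. LBR fell by 0.12 (q = 0.000337) in the RPE1 knockout and by 0.22 (q = 0.000115) in clone 1, was at -0.086 (q = 0.278) in clone 2, and rose by 0.16 (q = 9.94e-05) and 0.20 (q = 0.00178) in TetOn clones 4 and 5 in the authors' deposited tables. OXR1, a gene of oxidation resistance, followed at 0.830 and CENPT at 0.700. The next were ATP2B4 (0.521), ALDH3A2 (0.450), CD44 (0.390), TSC22D2 (0.363) and ANXA2 (0.302), so the likeness dropped off after the first few. CD44 and ANXA2 went against TRIM37 in sign in the 3 RPE1 tables, and their cosines are above 0 through CHP-134, where CD44 fell in both clones and ANXA2 in clone 2.

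Most opposite was IRS1, an adaptor of the insulin receptor, with a cosine of -0.982. IRS1 was at 0.18 (q = 0.00015) in the RPE1 knockout, 0.13 (q = 0.13) in clone 1, 0.18 (q = 0.0136) in clone 2, and -0.19 (q = 0.0101) and -0.20 (q = 0.00354) in TetOn clones 4 and 5 in the authors' deposited tables. DPYSL3, a cytoskeletal protein of growing neurites, followed at -0.923, with 0.29, 0.19 and 0.035 (q = 0.495) in the RPE1 knockout and CHP-134 clones 1 and 2 and -0.24 and -0.21 in TetOn clones 4 and 5 in the authors' deposited tables. Further down came EPHB6, SLC20A1, DUSP4, FUT8, PRRX1 and IGF2BP3, at -0.774 to -0.538. DUSP4, a phosphatase of MAP kinases, had the largest changes of these, with 1.55, 2.68 and 1.51 in the altered lines against -0.19 in both TetOn clones in the authors' deposited tables. IRS1 was thus opposite in sign to TRIM37 in all 5 tables, at a small part of its size.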

How the data were processed

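Total RNA of 39 libraries was sequenced, and the submitters' processing notes name STAR and DESeq2, with no versions. The build, annotation, strandedness and counting method were not given in the sources used here. Per the file headers, the authors deposited 5 tables of 23710 genes with a Status, a mean count signal whose normalisation is not stated, a log2 fold change with its SE on the log2 scale, and a q-value, that is, an adjusted p-value. Values carry 3 significant digits. Genes with the Status Low had mean counts of at most 10, and Low and Outlier genes were left out as not usable. Depth per library is unknown.

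From these, group levels were solved, differences between tables tested (normal test, 95% intervals at 1.96 SE) and promoters searched, with Python 3.11.15, numpy 2.4.6, pandas 2.3.3 and scipy 1.17.1. The difference test was tested on simulated data, with independent errors drawn for both comparisons at the authors' SEs. That simulation did not cover the wild type shared by the CHP-134 clones or a spread wider than the SEs. The unadjusted p is the two-sided normal p for the ratio of change to SE. TRIM37, its 5 neighbours on each side, all members of the partner and MATH lists, up to 4 members of smallest q of other lists, and the 8 most and 8 least alike genes were to be named. TRIM37 and the lists were chosen with earlier results of these data known. The alternatives changed the q threshold, the centre, the null, the count filter and the scaling, and undoing a possible shrinkage of fold changes was added after the data had been seen. Some single genes of the lists are not reported here.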

Additional observations from a re-analysis of the deposited data

Results flagged for a closer look

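The TRIM37 response differed between groups under the same kind of contrast in 3 cases. Doxycycline raised TRIM37 less in TetOn clone 5 than in clone 4, with a difference of -0.55 on the log2 scale (adjusted p = 6.07e-16), while 0.221% of genes differed between these clones. The fall of TRIM37 was smaller in CHP-134 clone 1 than in the RPE1 knockout, with a difference of 0.29 (adjusted p = 3.51e-06), and smaller in CHP-134 clone 2 than in the RPE1 knockout, with a difference of 0.20 (adjusted p = 0.00393). For these latter differences 34.1% and 46.5% of all genes also differed, and line, number of libraries and the kind of mutation cannot be told apart.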

How the results depend on the processing

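No paired analysis was possible because the tables hold no value per library, and for the same reason leaving out each replicate was not run. The 5 log2 fold changes of TRIM37 kept direction and call under the alternatives of centre, null and count filter, and undoing a shrinkage, for which no q was computed, gave -1.97, -1.68, -1.77, 3.35 and 2.76 in the order RPE1 knockout, CHP-134 clones 1 and 2, TetOn clones 4 and 5. The difference of -0.09 between the CHP-134 clones passed the threshold with the variance reduced for the shared wild type (adjusted p = 0.0473). It did not pass with the null rescaled to the central spread (adjusted p = 0.968). With the null rescaled to the central spread, the differences of 0.29 and 0.20 between CHP-134 clones 1 and 2 and the RPE1 knockout did not pass (adjusted p = 0.315 and 0.899), while that of -0.55 between the TetOn clones did (adjusted p = 2.34e-17); the cause was not tested.

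Of the 12 level ratios, 9 moved by 1.1-fold or more on reference genes, 4 on summed counts and 0 with genes whose mean count reached 1000, and none of the moved ones was a level of TetOn clone 5 relative to RPE1. On reference genes, relative to RPE1 wild type, CHP-134 wild type came to 4.49, mutant clones 1 and 2 to 1.42 and 1.34, and TetOn clone 4 to 1.79 untreated and 16.3 induced. There, clone 5 over clone 4 was 2.13 untreated and 1.45 induced, and induced clone 4 was 63.1 times the RPE1 knockout and 3.63 times CHP-134 wild type. On summed counts, CHP-134 wild type came to 4.07, its mutants to 1.29 and 1.21, and induced clone 4 to 4.78 times CHP-134 wild type. The 50 genes of opposite sign in the RPE1 knockout and both TetOn clones include TRIM37, whose place was fixed by taking the direction from it. They became 32 at a q under 0.01, 12 with changes of at least 0.26, 27 with the null rescaled and 65 at a q under 0.1. Centring left all of the list counts within 1.5 times, and a q under 0.01 moved 12 of 50 beyond that.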
